A study of Mus musculus with 6 samples.

Results

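Phospholipases A2 are enzymes that cut a fatty acid from the middle position of a membrane phospholipid and leave a lysophospholipid, and 8 genes of this class, Pla2g1b, Pla2g4a, Pla2g4f, Pla2g6, Pla2g7, Pla2g12a, Pla2g15 and Pla2g16, were followed in mouse oocytes with and without Lsd1. They are 8 of the 23284 gene symbols in the counts, and each was found under its listed symbol. The list was selected on measured values, the counts of Lsd1 KO against Control in these 6 libraries, so the levels and fold changes of these 8 genes are given as a description. Calls and intervals for them describe the same counts and are not independent tests. Fully grown oocytes arrested at the germinal vesicle stage were collected 48 hours after a 5 IU injection of pregnant mare serum gonadotrophin. Both genotypes had this injection, the Mixed C57BL/6-129 strain and an age of 4 to 6 weeks in common. The Lsd1 KO group and the Control group each had 3 samples of 100 oocytes. No source used here gives the deleted allele, the Cre driver or the exact genotype of the Control animals.

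The fatty acid set free is often arachidonic acid, the substrate from which cyclooxygenases and lipoxygenases make prostaglandins and leukotrienes, while the lysophospholipid can be acylated again or act as a signal. The family includes cytosolic enzymes, of which most but not all need calcium to reach the membrane, and calcium-independent enzymes that remodel membranes. It also holds small secreted enzymes, hydrolases of platelet-activating factor, and lysosomal and fat-cell enzymes. In the ovary, phospholipase A2 and prostaglandin synthesis are known mainly from the follicle cells around the oocyte at ovulation, and the mouse egg itself is known to store one cytosolic member, Pla2g4c, in large amounts.

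In mm9 coordinates the 8 genes lie on 8 chromosomes, all as protein-coding genes. The cytosolic genes are Pla2g4a, on chromosome 1 from 151676748 to 151808420, and Pla2g4f, on chromosome 2 from 120125693 to 120139901. The calcium-independent Pla2g6 is on chromosome 15 from 79116658 to 79158820. Of the secreted enzymes, Pla2g1b is on chromosome 5 from 115916271 to 115924731 and Pla2g12a on chromosome 3 from 129581524 to 129598739, and Pla2g7, which is also secreted, is on chromosome 17 from 43705047 to 43749150. The lysosomal Pla2g15 is on chromosome 8 from 108674299 to 108688613, and Pla2g16 is on chromosome 19 from 7631949 to 7663035. Pla2g7 shares its span with 1700071M16Rik on the opposite strand, which had 0 counts in all 6 libraries. Pla2g6 shares its span with Gm20420, a transcript on the opposite strand that is not among the gene symbols in the counts. Pla2g4a holds the annotated ribosomal RNA copy n-R5s219 on its opposite strand. The use of strand in the counting is not known, so reads of such pairs cannot be told apart.

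Promoter sequence was read because several of these genes differed between the genotypes in the same direction. RefSeq start sites on GRCm38.p6 were found for all 8 genes, Pla2g16 under its newer symbol Plaat3, each with 250 bases before and 50 bases after the start. Over 32851 such promoters the median number of CpG dinucleotides was 7 (quartiles 3 and 20). The promoters fell on both sides of it: Pla2g1b and Pla2g4f had 2, Pla2g12a had 4 and the first start of Pla2g4a had 6, whereas the first start of Pla2g16 had 9, Pla2g7 had 17, and Pla2g6 and Pla2g15 had 19 each. Shown are the promoters of the 3 genes with the largest fold changes and, for contrast, that of Pla2g6, 5′ to 3′ along the gene, with CpG dinucleotides in capitals. They lie at chr5:115465892-115466191 (plus strand) for Pla2g1b, chr1:149961241-149961540 (minus strand) for Pla2g4a, chr19:7557209-7557508 (plus strand) for Pla2g16 and chr15:79328322-79328621 (minus strand) for Pla2g6.
Pla2g1b: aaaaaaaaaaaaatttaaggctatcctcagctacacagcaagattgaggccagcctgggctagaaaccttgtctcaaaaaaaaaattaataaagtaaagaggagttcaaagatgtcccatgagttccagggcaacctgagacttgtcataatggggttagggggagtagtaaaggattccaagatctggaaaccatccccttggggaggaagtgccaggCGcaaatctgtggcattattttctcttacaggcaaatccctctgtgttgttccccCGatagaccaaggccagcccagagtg
Pla2g4a: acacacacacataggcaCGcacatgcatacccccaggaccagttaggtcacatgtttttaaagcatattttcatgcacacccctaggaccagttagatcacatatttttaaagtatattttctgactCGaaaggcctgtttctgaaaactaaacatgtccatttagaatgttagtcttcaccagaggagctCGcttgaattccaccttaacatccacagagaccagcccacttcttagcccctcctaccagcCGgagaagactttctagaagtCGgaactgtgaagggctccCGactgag
Pla2g16: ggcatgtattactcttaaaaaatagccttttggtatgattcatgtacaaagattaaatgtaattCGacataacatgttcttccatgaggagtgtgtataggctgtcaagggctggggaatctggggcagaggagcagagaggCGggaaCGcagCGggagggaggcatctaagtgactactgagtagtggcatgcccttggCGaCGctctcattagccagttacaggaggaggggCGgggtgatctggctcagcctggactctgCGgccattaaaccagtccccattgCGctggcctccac
Pla2g6: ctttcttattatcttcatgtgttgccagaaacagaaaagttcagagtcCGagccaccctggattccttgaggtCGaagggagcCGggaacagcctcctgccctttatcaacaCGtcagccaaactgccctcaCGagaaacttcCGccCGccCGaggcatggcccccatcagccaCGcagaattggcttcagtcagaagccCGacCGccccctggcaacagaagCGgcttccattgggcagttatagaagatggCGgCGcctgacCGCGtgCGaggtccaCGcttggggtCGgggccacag
The TATA box TATAAA, searched on both strands, was in none of these 4 windows, but was in the window of a second start of Pla2g4a, which had 2 CpG dinucleotides and is not shown. It is in 13.6% of all promoters of this length. The letters TAATTG, bound by the oocyte factor NOBOX, were on either strand in the Pla2g15 window but in none of the 4 printed, against 8% of all promoters. These letters describe the windows only.

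The libraries held 10735422 to 13035045 counts in genes. The library labels were checked on the deleted gene, Kdm1a (Lsd1), which had 47, 31 and 36 counts in Lsd1 KO and 799, 962 and 492 in Control. All 12 oocyte markers were detected in each library, led by Gdf9 and Zp2. Their summed levels were 38225 to 41402 CPM for Lsd1 KO, against 26374 to 30727 for Control. CPM are gene counts taken relative to the scaled total of each library. Gdf9, the most abundant, had a mean of 15558 against 6057 CPM (log2 fold change 1.36). Of the 12 estimates 5 were positive and 7 negative, with a median log2 fold change of -0.13. By edgeR 3 of the 12 were called higher and 0 lower, 25% beside 21.3% of all genes tested. The sums of the oocyte markers thus do not show a rise of the whole list. Markers of other cells were also present. The 19 granulosa genes summed to 420 to 481 CPM in Lsd1 KO and 137 to 163 CPM in Control, and the most abundant over all libraries were the aromatase gene Cyp19a1 (239 to 405 CPM in Lsd1 KO against 28.6 to 49.2 in Control) and Nr5a2, which was lower in Lsd1 KO (28.7 against 69.4 CPM). Of the granulosa list 3 genes were higher and 1 was lower of 13 tested, 30.8% beside 21.3% of all genes. The median log2 fold change was 1.35, beside -0.01 over all genes tested, and 11 of the 13 estimates were positive. None of the 19 was at 0 in all libraries. The 17 white blood cell genes, led by C1qb and Lyz2, summed to 242, 37.4 and 216 CPM in Lsd1 KO replicates 1 to 3 and to 70.9, 25.8 and 82.4 CPM in Control replicates 1 to 3. Of 13 tested 1 was called higher, 7.69% beside 21.3% of all genes. Yet all 13 estimates were positive, with a median log2 fold change of 1.71 beside -0.01 over all genes tested. None of the 17 was at 0 in all libraries. The 10 theca and stroma genes, led by Dcn and Ptch1, summed to 11.1 to 17.1 against 5.50 to 8.05 CPM, with Insl3 at 0 in all libraries. These 2 leading genes were the 2 tested, and they went in opposite directions. Dcn was called higher, with a mean of 7.57 against 0.414 CPM. Ptch1 was not called, but all its Lsd1 KO libraries lay below Control (mean 1.81 against 4.51 CPM, log2 fold change -1.31). The higher sums therefore do not show a rise of the whole list. Of the 6 red cell genes, only Alas2 had counts, at no more than 2.08 CPM in a library, and none was tested.

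All 8 phospholipase A2 genes had counts and passed the filter on low counts. By the mean of each genotype all 8 stood higher in Lsd1 KO, with log2 fold changes from 0.53 to 4.23 and a median of 1.01, where the median over all 12935 genes tested was -0.01. At an adjusted p under 0.05, 6 were called higher and none lower by edgeR (none lower at an unadjusted p under 0.05 either, nor by DESeq2 or limma-voom), beside 21.3% of all genes called in either direction and 11% called higher and 10.3% lower. Nothing is read from this count, because the same contrast chose the genes. It was 3 without Control replicate 1, without Control replicate 2 or without Lsd1 KO replicate 2, the calls of Pla2g4f, Pla2g6 and Pla2g15 being lost in each of these 3 fits. The groups did not overlap for 5 of the 8, where 19.5% of all genes tested lay wholly higher in Lsd1 KO.

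**Figure D1:**
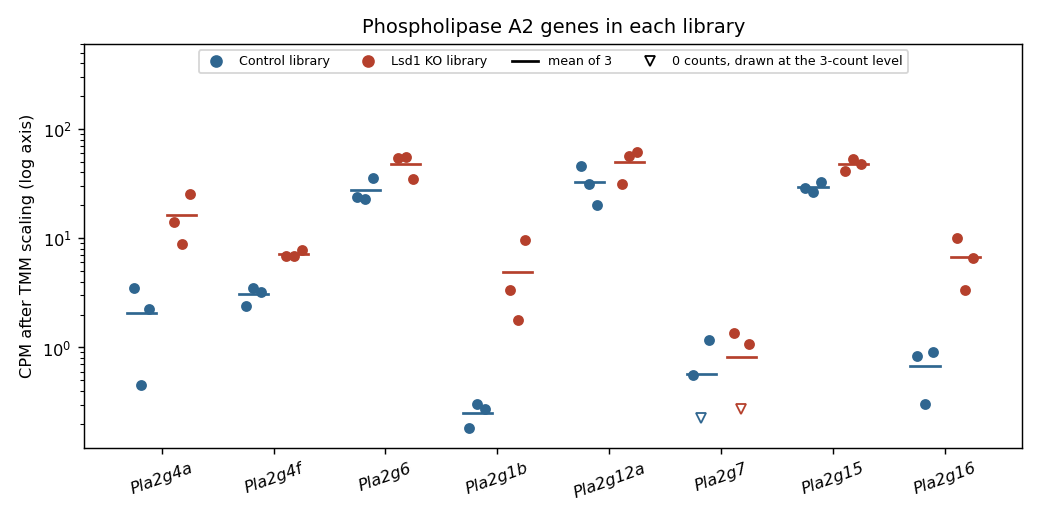
Level of each phospholipase A2 gene (CPM, log axis) in the 3 Control and 3 Lsd1 KO libraries, 1 point per library with the mean of 3 as a line; triangles mark 0 counts, drawn at the level of 3 counts. The Lsd1 KO points lie above every Control point for Pla2g4a, Pla2g4f, Pla2g1b, Pla2g15 and Pla2g16, and the groups overlap for Pla2g6, Pla2g12a and Pla2g7.

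Among the cytosolic enzymes, Pla2g4a encodes the calcium-activated form that prefers arachidonic acid and feeds prostaglandin synthesis in many cells. It was at 14.0, 8.93 and 25.6 CPM in Lsd1 KO replicates 1 to 3 and at 3.51, 0.452 and 2.26 CPM in Control replicates 1 to 3. Every Lsd1 KO library was above every Control library, and the Control libraries differed among themselves by 7.78 times. The means were 16.2 ± 8.53 against 2.07 ± 1.54 CPM (SD, n = 3 each), a log2 fold change of 2.98 ± 0.58 (SE). Single libraries moved this value, to 3.57 without Control replicate 1, 2.49 without Control replicate 2 and 2.51 without Lsd1 KO replicate 3.

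Pla2g4f, a calcium-dependent relative of Pla2g4a, varied little between libraries of the same genotype. Its levels were 6.81, 6.85 and 7.81 CPM in Lsd1 KO and 2.40, 3.54 and 3.25 CPM in Control. The highest library was 1.15 times the lowest in Lsd1 KO and 1.47 times in Control, and the groups did not overlap. The log2 fold change was 1.22 ± 0.36. Its call was also lost without Lsd1 KO replicate 1 or Lsd1 KO replicate 3.

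Pla2g4f sits in a row of cytosolic phospholipase A2 genes on chromosome 2, 10759 bases from Pla2g4d and on the same strand, with Pla2g4e 20259 bases beyond that. These neighbours are described after their values were seen. Pla2g4d was at 6.57, 2.80 and 2.33 CPM in Lsd1 KO and 6.66, 6.25 and 2.80 CPM in Control (log2 -0.42 ± 0.49, adjusted p = 0.578 by edgeR). Pla2g4e was at 43.1, 95.7 and 47.4 CPM in Lsd1 KO and at 87.5, 165 and 72.6 CPM in Control (-0.81 ± 0.34, adjusted p = 0.109). Both neighbours had overlapping groups and negative estimates, opposite in sign to that of Pla2g4f, and Pla2g4b, on the far side of Pla2g4e across 123378 bases, had -0.89 ± 0.66 (adjusted p = 0.360). Whether Pla2g4f differed from its neighbours in response was not tested.

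Pla2g6 encodes the calcium-independent enzyme that takes part in membrane remodelling and in the upkeep of mitochondrial membranes. It was at 54.1, 55.6 and 35.1 CPM in Lsd1 KO and at 24.0, 23.0 and 35.9 CPM in Control. Lsd1 KO replicate 3 and Control replicate 3 were nearly level, so the groups overlapped, while the other libraries were well apart. The means were 48.3 ± 11.4 against 27.7 ± 7.18 CPM (log2 0.80 ± 0.24). Its call was also lost without Lsd1 KO replicate 1.

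Of the secreted enzymes, Pla2g1b is best known as the pancreatic digestive phospholipase. It was nearly absent from Control oocytes, with 2, 4 and 3 counts (0.185, 0.301 and 0.271 CPM), and had 42, 20 and 108 counts in Lsd1 KO (3.37, 1.8 and 9.70 CPM). Lsd1 KO replicate 3 was 5.37 times Lsd1 KO replicate 2, and even the lower of them was above every Control library. The log2 fold change of 4.23 ± 0.75 was the largest of the 8. It was 3.32 without Lsd1 KO replicate 3. The ratio of the summed counts, 170 against 9 and scaled for depth, was 19.1, with an exact 95% interval of 9.85 to 42.6 that covers counting error only.

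Pla2g12a, a secreted enzyme of low catalytic activity, was the most abundant of the 8 and varied most between libraries of the same genotype among the abundant ones. It was at 31.4, 57.0 and 61.7 CPM in Lsd1 KO and at 45.8, 31.6 and 20.3 CPM in Control. Lsd1 KO replicate 1 fell among the Control values, and the Control libraries spanned 2.25 times. The log2 fold change was 0.62 ± 0.30, and the gene was not called.

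Pla2g7 encodes the secreted acetylhydrolase that inactivates platelet-activating factor and is made mainly by macrophages. It had 17, 0 and 12 counts in Lsd1 KO and 6, 0 and 13 counts in Control. With 0 counts, the level could still be up to 0.271 CPM in Lsd1 KO replicate 2 and 0.226 CPM in Control replicate 2. These 2 libraries are also the lowest in summed white blood cell markers in their genotype, at 37.4 and 25.8 CPM; the part of such cells in the Pla2g7 counts was not tested. The estimate of 0.53 ± 1.15 changed sign to -0.07 without Control replicate 2 and to -0.04 without Lsd1 KO replicate 1, and was 1.58 without Control replicate 3 and 1.08 without Lsd1 KO replicate 2. No difference was detectable at these low counts and with this spread between libraries.

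Pla2g15 encodes the lysosomal phospholipase A2, which breaks down phospholipids that reach the lysosome. Its levels were 41.6, 52.8 and 47.8 CPM in Lsd1 KO and 28.6, 26.5 and 32.5 CPM in Control. The groups did not overlap and were tight, with highest-to-lowest ratios of 1.27 and 1.23. The means were 47.4 ± 5.59 against 29.2 ± 3.05 CPM (log2 0.70 ± 0.19), the smallest fold change among the 6 genes called. Its call was also lost without Lsd1 KO replicate 3.

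Pla2g16 is known as the main phospholipase A2 of fat cells, where it holds back fat breakdown. It had 125, 37 and 74 counts in Lsd1 KO (10, 3.34 and 6.64 CPM) and 9, 4 and 10 counts in Control (0.832, 0.301 and 0.903 CPM). Each Lsd1 KO library was above each Control library, and both groups spanned 3 times from lowest to highest. The log2 fold change was 3.30 ± 0.58, between 2.90 and 3.60 when 1 library was left out. The ratio of the summed counts, 236 against 23, was 10.4, with an exact 95% interval of 6.77 to 16.7 for counting error only.

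**Figure D2:**
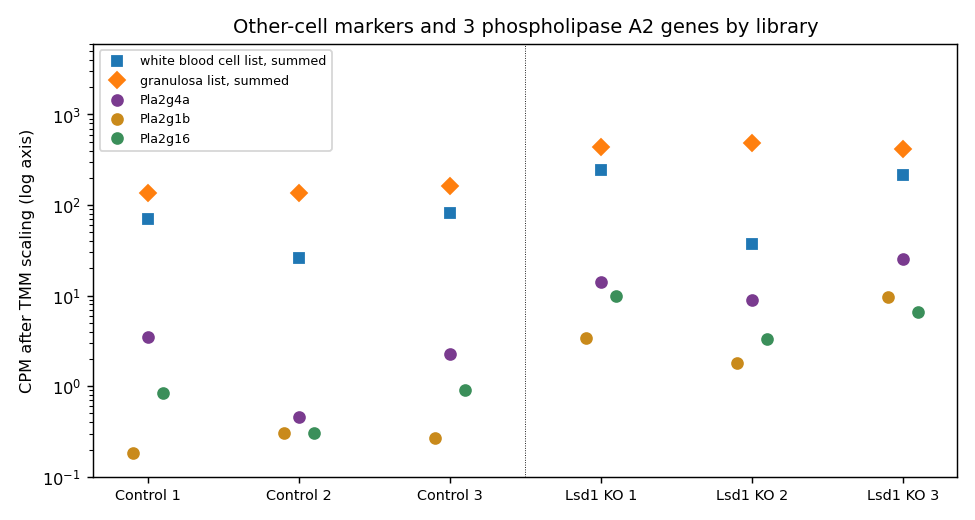
Summed white blood cell markers (squares), summed granulosa markers (diamonds) and the levels of Pla2g4a, Pla2g1b and Pla2g16 (circles) in each library, all in CPM on a log axis. Among the Lsd1 KO libraries, replicate 2 is lowest in the white blood cell sum (37.4 CPM) and in each of the 3 genes. It is highest in the sum of all 19 granulosa markers (481 CPM).

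The 3 genes with the largest fold changes, Pla2g1b, Pla2g4a and Pla2g16, were each lowest, among the Lsd1 KO libraries, in replicate 2. That library also had the lowest white blood cell sum of its genotype, 37.4 CPM, where Control replicates 1 to 3 had 70.9, 25.8 and 82.4 CPM. Of the 17 genes 9 were detected in Lsd1 KO replicate 2, where C1qb alone was at 21.1 CPM, Lyz2 had 1 count and Tyrobp 0. All 17 were detected in Lsd1 KO replicates 1 and 3. In Control replicate 2, 12 were detected, with C1qb at 16.9 CPM. In Lsd1 KO replicate 2 Pla2g4a was at 8.93 CPM, Pla2g16 at 3.34 CPM and Pla2g1b at 1.8 CPM. The highest Control libraries were at 3.51, 0.903 and 0.301 CPM. All 19 granulosa markers summed to 432, 481 and 420 CPM in Lsd1 KO replicates 1 to 3, highest in replicate 2 and lowest in replicate 3. Without the most abundant, Cyp19a1 and Nr5a2, this order was reversed. The sums were then 78.3, 49.0 and 148 CPM in Lsd1 KO replicates 1 to 3 and 41.2, 31.2 and 46.1 CPM in Control replicates 1 to 3. Lsd1 KO replicate 3, with the highest Pla2g1b and Pla2g4a, was highest in this smaller sum, and Lsd1 KO replicate 2 was lowest of its genotype. Pla2g16 was instead highest in Lsd1 KO replicate 1, at 10 CPM. The part of white blood cells and of granulosa cells in these levels was not tested. In bulk samples, fewer cells of a type and less RNA per cell cannot be told apart.

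The order of the genes was read on levels per kilobase of exon (RPKM), which use all annotated exons and so understate a gene whose oocyte transcript is short. In Control it ran from Pla2g12a at 19.5 RPKM through Pla2g15 (10.8), Pla2g6 (5.56), Pla2g4f (0.957), Pla2g1b (0.354), Pla2g4a (0.325) and Pla2g7 (0.198) to Pla2g16 (0.106). The ranges of neighbours were separate from Pla2g12a down to Pla2g1b, and from Pla2g1b on each neighbour overlapped the next. In Lsd1 KO, Pla2g12a (30.0 RPKM), Pla2g15 (17.5) and Pla2g6 (9.70) kept the top places, and Pla2g1b followed at 6.95, ahead of Pla2g4a (2.53), Pla2g4f (2.24), Pla2g16 (1.04) and Pla2g7 (0.280). There the ranges overlapped between Pla2g12a and Pla2g15, between Pla2g6 and Pla2g1b, between Pla2g1b and Pla2g4a and between Pla2g4a and Pla2g4f, and were separate for the other neighbours.

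**Figure D3:**
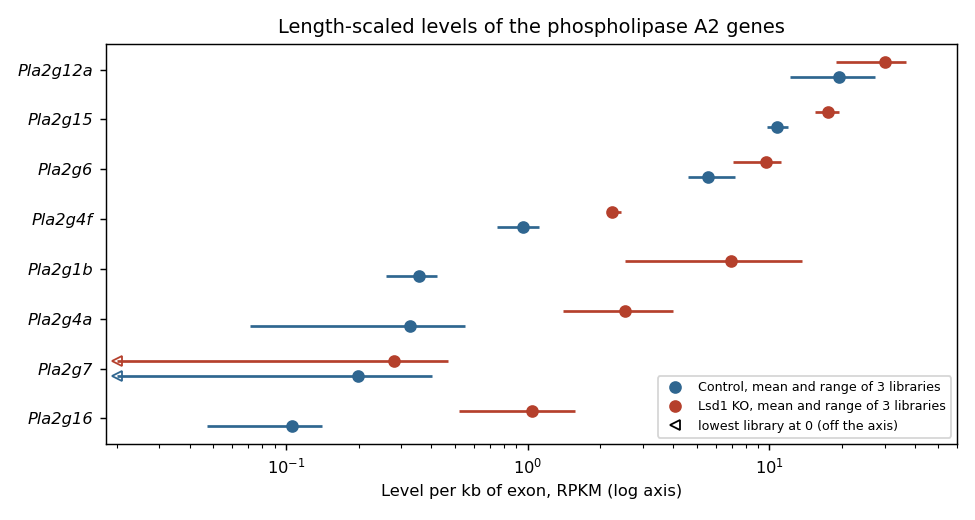
Level per kilobase of exon (RPKM, log axis) of each phospholipase A2 gene, ordered by its Control mean; points are means and lines run from the lowest to the highest of 3 libraries. Pla2g12a, Pla2g15 and Pla2g6 hold the top 3 places in both genotypes, and Pla2g1b moves from 0.354 to 6.95 RPKM.

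The make-up of the group was also compared, as a description. Summed over the 8 genes, the level was 56.2, 71.4 and 83.1 RPKM in Lsd1 KO and 44.7, 35.0 and 33.7 RPKM in Control. Pla2g12a made up 41.9% ± 7.47 of that sum in Lsd1 KO and 50.5% ± 13 in Control (SD, n = 3), Pla2g15 25.3% ± 3.51 and 29.1% ± 6.09, and Pla2g6 14.5% ± 5.53 and 15.1% ± 5.56. Pla2g1b made up 8.41%, 3.54% and 16.4% in Lsd1 KO replicates 1 to 3, and between 0.580% and 1.21% in each library of Control oocytes. The share of Pla2g4a was 3.56% ± 1.46 against 0.827% ± 0.549.

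All of these are small beside Pla2g4c, the oocyte form of the cytosolic family. It was at 1101, 2298 and 1402 CPM in Lsd1 KO and 1519, 1446 and 1486 CPM in Control (log2 0.11 ± 0.24, adjusted p = 0.780 by edgeR), with the Lsd1 KO libraries on both sides of a narrow Control range. Per kilobase it took 80.7%, 87.1% and 79.2% of the summed level of 21 genes named Pla2g in Lsd1 KO, and 86.6%, 85.9% and 88.6% in Control.

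Of 31 other genes of the wider family, which includes patatin-like lipases, acetylhydrolases of platelet-activating factor, the phospholipase A2 receptor and the activating protein Plaa, 25 had counts and 20 were tested. By edgeR, 1 was higher and none was lower, 5.00% of those tested beside the 21.3% of all genes, with a median log2 fold change of 0.10. At an unadjusted p under 0.05 there were 6 higher and 3 lower, and none was lower by DESeq2 or limma-voom. The gene that rose was Pafah1b2, a catalytic subunit of the intracellular acetylhydrolase, from 28.4 ± 3.20 to 48.7 ± 10.9 CPM (log2 0.78 ± 0.21, edgeR adjusted p = 0.0218). Its regulatory partner Pafah1b1 was at 343 ± 17.3 against 255 ± 22.1 CPM (0.42 ± 0.16, adjusted p = 0.0829). Plaa was at 331 ± 48.2 against 287 ± 34.9 CPM and the patatin-like lipase Pnpla3 at 195 ± 95.9 against 166 ± 47.3 CPM, neither past the threshold. There were 2 higher without Control replicate 2, and there were none higher without Control replicate 1, Lsd1 KO replicate 1 or Lsd1 KO replicate 3. Leaving out Lsd1 KO replicate 2 gave 2 lower.

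**Figure D4:**
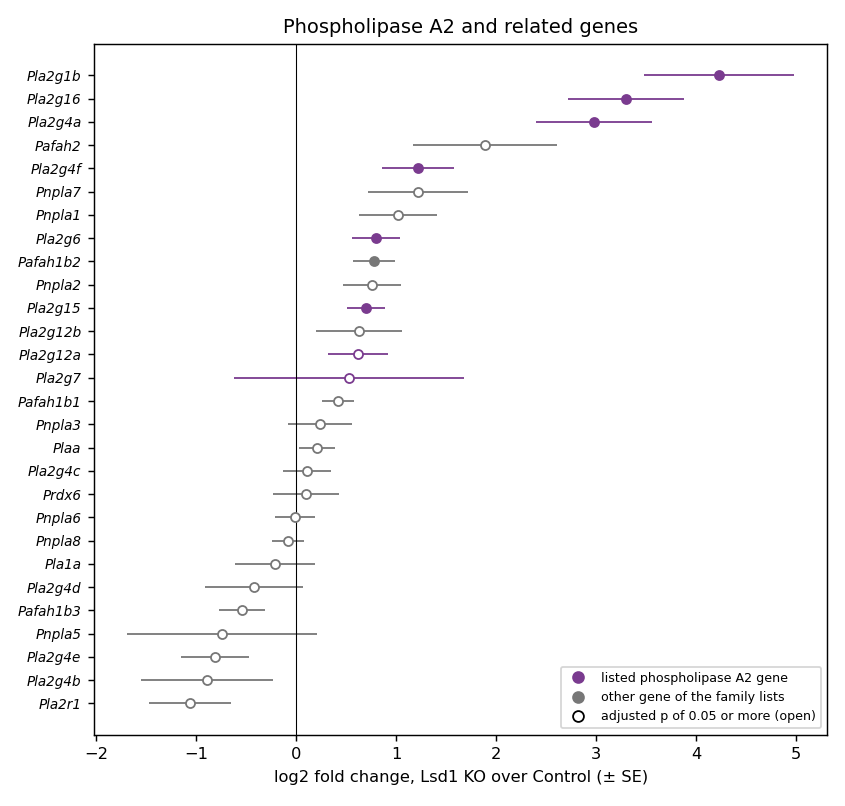
Log2 fold change (Lsd1 KO over Control, ± SE) of the 8 listed phospholipase A2 genes (purple) and 20 other genes of the wider family (grey), filled where the adjusted p is under 0.05. Of the listed genes 6 are filled and of the others only Pafah1b2; the 8 were listed with this contrast known.

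Downstream of arachidonic acid, of 20 tested enzymes that make or break down eicosanoids, 4 were higher and 1 was lower, 25% beside 21.3% of all genes, with a median log2 fold change of 0.68. The inducible cyclooxygenase Ptgs2, which turns arachidonic acid into the prostaglandin precursor, was at 14.4, 20.6 and 21.2 CPM in Lsd1 KO and 2.22, 1.73 and 1.54 CPM in Control. The groups were far apart, with a log2 difference of 3.35 ± 0.33 (adjusted p by edgeR = 6.23e-05). Ptges, the synthase that makes prostaglandin E from that precursor, rose from 3.21 ± 1.73 to 10.8 ± 3.37 CPM (1.75 ± 0.43, adjusted p = 0.0131), and Ptgr1, a reductase that inactivates eicosanoids, from 23.9 ± 4.84 to 98.5 ± 32.2 CPM (2.04 ± 0.26, adjusted p = 3.91e-04). The glutathione transferase Mgst3 fell from 113 ± 20.6 to 72.5 ± 6.12 CPM (-0.64 ± 0.18, adjusted p = 0.0261), and the carbonyl reductase Cbr1, named after its values were seen, was the fourth that rose (0.81 ± 0.26, adjusted p = 0.0434). Ptgs2 and Ptgr1 kept the call without any single library, Ptges lost it without Control replicate 1 (adjusted p = 0.0579), Mgst3 kept it in 2 fits (up to 0.116) and Cbr1 in 1 (up to 0.159). Leaving out Control replicate 1 gave 2 eicosanoid enzymes higher, and leaving out Lsd1 KO replicate 2 gave 7. None was lower when Control replicate 1 or any 1 of the Lsd1 KO replicates was left out. The granulosa and white blood cell sums given above also stood higher in Lsd1 KO, except for the white blood cell sum of replicate 2, and the part of such cells in these changes was not tested.

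A list of receptors for these lipids, which also held the receptor inhibitor Ptgfrn, had 26 genes, of which 10 were tested. Of these 1 was higher and 3 were lower, 40% beside 21.3% of all genes (median log2 -0.09). Ptger4, a receptor for prostaglandin E that raises cAMP, was at 15.2, 19.6 and 10.1 CPM in Lsd1 KO and 39.2, 47.8 and 41.9 CPM in Control, with no overlap (-1.52 ± 0.25, edgeR adjusted p = 0.00164). The fatty-acid-sensing nuclear receptor Ppara fell from 11.3 ± 3.23 to 3.79 ± 0.266 CPM (-1.57 ± 0.33, adjusted p = 0.00619). Ptgfrn, a partner of tetraspanins that also inhibits the prostaglandin F receptor, fell from 41.3 ± 8.28 to 20.8 ± 5.98 CPM (-0.99 ± 0.25, adjusted p = 0.0155). The lysophosphatidic acid receptor Lpar1 rose from 10.5 ± 1.23 to 22.8 ± 5.38 CPM (1.12 ± 0.26, adjusted p = 0.00973). Ptger4, Ppara and Lpar1 kept the call without any single library, and Ptgfrn in 3 of 6 (largest adjusted p 0.0801). Leaving out Lsd1 KO replicate 2 gave 2 receptors higher.

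The remodelling list held mainly enzymes that reacylate lysophospholipids, hydrolyse them or activate fatty acids for them. It also held other hydrolases, among them Gde1 and Ppt1. The list gave 6 higher and 2 lower of 31 tested, 25.8% beside 21.3% of all genes, with a median log2 fold change of 0.34. The glycerophosphodiesterase Gde1 rose from 20.5 ± 1.90 to 40.6 ± 3.68 CPM (0.98 ± 0.19, edgeR adjusted p = 0.00424) and Taz, the tafazzin that remodels cardiolipin, from 32.0 ± 0.864 to 57.8 ± 3.52 CPM (0.85 ± 0.17, adjusted p = 0.00520). Mboat7, an acyltransferase that puts arachidonic acid back into phosphatidylinositol, rose from 11.7 ± 3 to 23.6 ± 2.98 CPM (1.01 ± 0.26, adjusted p = 0.0162), whereas Lclat1, a lysocardiolipin acyltransferase, fell from 134 ± 22.2 to 80.8 ± 6.90 CPM (-0.73 ± 0.18, adjusted p = 0.0138). Gde1 and Taz kept the call without any single library, Mboat7 lost it without Lsd1 KO replicate 3 (adjusted p = 0.0627), and Lclat1 without Control replicate 2 or Lsd1 KO replicate 1 (up to 0.0651). The other calls, named after their values were seen, were Ppt1 (0.64), Enpp2 (0.65) and Acsl3 (0.59), higher, and Agpat2 (-1.96), lower, kept in 1, 2, 2 and 2 of the 6 fits. Only 3 remodelling genes were higher when Control replicate 1, Lsd1 KO replicate 1 or Lsd1 KO replicate 3 was left out. None was lower on leaving out Control replicate 2 or Lsd1 KO replicate 1, 1 on leaving out Control replicate 1 or Lsd1 KO replicate 3, and 4 on leaving out Lsd1 KO replicate 2.

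**Figure D5:**
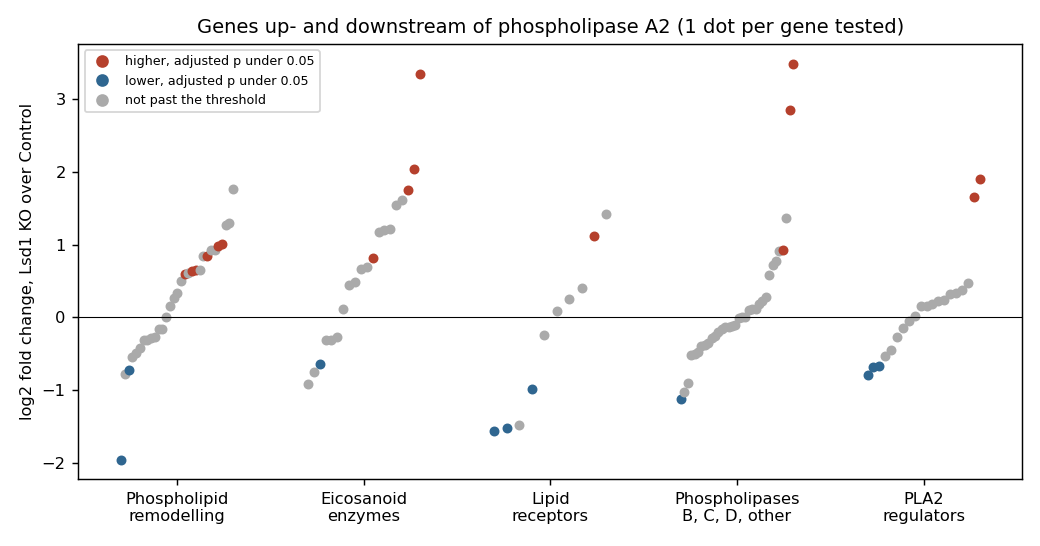
Log2 fold change (Lsd1 KO over Control) of the genes tested in 5 lists around phospholipase A2, 1 dot per gene in rising order within its list, red where higher and blue where lower at an adjusted p under 0.05. The highest dots are Lipg (3.49) and Ptgs2 (3.35) and the lowest called dot is Agpat2 (-1.96).

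Phospholipases of the other classes had 3 higher and 1 lower of 34 tested (11.8% beside 21.3% of all genes, median log2 -0.06). Plbd1, a lysosomal phospholipase B relative, was at 9.38, 5.32 and 14.2 CPM in Lsd1 KO and 1.29, 0.979 and 1.72 CPM in Control (2.85 ± 0.46, edgeR adjusted p = 0.00153). The endothelial lipase Lipg, which cuts phospholipids of lipoproteins, rose from 0.539 ± 0.636 to 6.05 ± 0.465 CPM (3.49 ± 0.70, adjusted p = 0.00472). Its Control replicates 1 to 3 had only 3, 1 and 14 counts. The lysosomal Pld3 rose from 26.2 ± 4.85 to 49.4 ± 4.47 CPM (0.92 ± 0.20, adjusted p = 0.00763). These 3 kept the call without any single library. Pld6, a mitochondrial enzyme of the piRNA pathway, fell from 6.85 ± 0.323 to 3.11 ± 0.674 CPM (-1.13 ± 0.36, adjusted p = 0.0415) and kept the call in none of the 6 such fits (up to 0.113). None was lower on leaving out Control replicate 1, Control replicate 2 or Lsd1 KO replicate 3.

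Among 20 tested kinases, annexins and calcium-binding proteins known to act on these enzymes, 2 were higher and 3 lower, 25% beside 21.3% of all genes (median log2 0.16). The annexins Anxa5 and Anxa4, which bind phospholipids in the presence of calcium, rose from 7.46 ± 3.09 to 23.6 ± 3.92 CPM (1.66 ± 0.32, edgeR adjusted p = 0.00412) and from 2.75 ± 0.756 to 10.4 ± 4.01 CPM (1.91 ± 0.40, adjusted p = 0.00578). Mknk1, a kinase downstream of MAP kinases, fell from 125 ± 25.9 to 78.0 ± 7.71 CPM (-0.68 ± 0.19, adjusted p = 0.0238), and the calmodulin gene Calm2, whose reads may be shared with near-identical copies so that its value is uncertain, from 1390 ± 312 to 876 ± 117 CPM (-0.67 ± 0.20, adjusted p = 0.0343). The third fall, named after its values were seen, was Anxa2 (-0.79, adjusted p = 0.0426). Anxa5 and Anxa4 kept the call without any single library, while Mknk1 kept it in 3 such fits and Calm2 and Anxa2 in 1 each, with the largest adjusted p at 0.113, 0.106 and 0.162. Leaving out Lsd1 KO replicate 2 gave 4 regulators higher. Leaving out Control replicate 3, Lsd1 KO replicate 1 or Lsd1 KO replicate 3 gave none lower, and leaving out Control replicate 1 gave 1.

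For 7 of the 8 genes, all but Pla2g7, the gene outside these lists whose log2 level was most alike over the 6 libraries was found among 11357 genes, by Pearson's r, as a description. The closest were Ccdc28b to Pla2g1b (0.997), Dcdc2a to Pla2g4a (0.997), Actg2 to Pla2g4f (0.998), Chmp7 to Pla2g6 (0.996), Chid1 to Pla2g12a (0.990), Rad23b to Pla2g15 (0.999) and Epb4.9 to Pla2g16 (0.998). The points of a gene pair come from the same 6 libraries, 3 of each genotype, and share their scaling. With 6 values and so many genes compared, high values of r arise easily. The closest genes were not of like size in their difference: Actg2 had a log2 fold change of 5.60 beside 1.22 in Pla2g4f, and Ccdc28b one of 0.88 beside 4.23 in Pla2g1b.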

How the data were processed

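Germinal vesicle oocytes of 3 Lsd1 KO and 3 Control samples were sequenced after NuGEN Ovation amplification and TruSeq library preparation, per the labels. The authors deposited raw read counts per gene symbol, 1 file per sample, and the tools HTSeq 0.5.3p9, TopHat2 2.0.7 and CASAVA 1.8.2 and the build mm9 are listed, without their roles, in the submitters' processing notes. No source used here gives the annotation, the options or the use of strand. Totals were 10735422 to 13035045 counts.

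Genes were filtered with filterByExpr of edgeR 4.0.16 (minimum count 10), which left 12935, scaled by TMM and tested with the quasi-likelihood F test, which is two-sided. Every adjusted p comes from it, by the Benjamini-Hochberg method across the 12935 genes, with a threshold of 0.05. Standard errors were derived from the fold change and the F statistic. CPM were computed from the deposited counts, and RPKM with exon lengths of GENCODE M1 on NCBIM37, the assembly of mm9. A prior count of 2 was added for the log2 CPM behind the measure of likeness. Intervals and the 3-count floor cover counting error only. R 4.3.3, limma 3.58.1, DESeq2 1.42.0, Python 3.11.15 and matplotlib 3.10.9 were used.

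The series' design calls the 3 samples of a genotype biological replicates, and p-values measure the spread between them. The genes described and the lists were chosen with earlier results of these data known. Named were the 8 genes, in the wider family the calls and the 4 most abundant genes, in the other pathway lists up to 4 calls with the smallest adjusted p, in marker lists the 2 most abundant genes, and the most alike gene of each of the 8, of which that of Pla2g7 is not reported here. Alternatives were RLE size factors, library totals, DESeq2, limma-voom, no filter, a replicate block, each library left out and a fold change of at least 2.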

Additional observations from a re-analysis of the deposited data

How the results depend on the processing

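The 8 phospholipase A2 genes gave 3 to 6 calls higher when 1 library was left out, 4 with at least a 2-fold change, and 5 or 6 in the other settings; none was lower in any. All their estimates were positive in the 12 alternative fits except that of Pla2g7. Scaling moved the median of all genes by no more than 0.03 (log2, library totals). Over all genes, 932 to 1466 were higher and 638 to 1346 lower with 1 library left out, from 1421 and 1329, and 945 and 625 with at least a 2-fold change. With 1 library left out the lists gave, higher and lower, 0 to 2 and 0 to 2 (wider family), 3 to 6 and 0 to 4 (remodelling), 2 to 7 and 0 to 1 (eicosanoid enzymes), 1 to 2 and 2 to 3 (receptors), 3 and 0 to 1 (other phospholipases), and 2 to 4 and 0 to 3 (regulators). With at least a 2-fold change, the wider family had 0 higher, remodelling 1 higher and 1 lower, eicosanoid enzymes 0 lower and regulators 0 lower. The wider family had 2 higher with library totals and with DESeq2, and 1 lower with no filter. Eicosanoid enzymes had 7 higher with DESeq2 and with no filter, regulators 5 lower with DESeq2, and other phospholipases 0 lower with library totals. The cause of these shifts was not tested. The replicate numbers did not pair the samples: deviations of same-numbered libraries correlated at -0.029, 0.111 and -0.0211. With the replicate block, 1270 genes were higher and 1098 lower, 5 of the 8 phospholipase A2 genes were higher, the wider family had 1 lower, remodelling 3 higher and other phospholipases 0 lower. Not every library correlated best with its own number. Genes with few counts are limited by depth, among them Pla2g7 and the Control libraries of Pla2g1b, Pla2g16 and Lipg. The same holds for Pla2g4a in Control replicate 2, with 6 counts. Pla2g7 is also limited by the spread between libraries.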
